A study of Mus musculus with 12 samples.

Results

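The 7 genes described here make, control, carry or clear cholesterol in the brain: Hmgcs1, Fdps, Sqle, Srebf2, Apoe, Abca1 and Cyp46a1. They were found as the array probes, other than control probes, whose gene name in the deposited files is one of these symbols, which gave 18 of the 43020 probe spots of each array, 9 different probes and 7 of 29608 genes. Their RNA was measured in the hippocampus of 12 adult female mice, 4 each of MRL/lpr, Fn14koMRL and MRL/MpJ, to compare a lupus-prone strain with the same strain lacking a cytokine receptor and with a control strain. Each mouse was 1 channel of an Agilent 2-colour array of 60-base probes. Of the 2 mice of a strain that shared an array, the odd-numbered replicate was labelled with Cy3 and the even-numbered one with Cy5.

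MRL/lpr mice carry a loss-of-function mutation of Fas and develop a lupus-like disease. Fn14koMRL mice, called Fn14ko in the study, lack Fn14, the receptor of the cytokine TWEAK encoded by Tnfrsf12a. They were bred by backcross as littermates of the MRL/lpr mice, so both strains share that background. MRL/MpJ mice, called MRL/+ in the study, have the MRL background with an intact Fas gene. They were bought from another breeder, so that the source of the animals cannot be told apart from the contrast of MRL/MpJ with the other strains. All mice were about 12 weeks old and in diestrus. Both arrays of a strain were on 1 slide of their own, and slide and strain cannot be told apart either.

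The brain makes nearly all of its own cholesterol, because lipoproteins of the blood do not cross the blood-brain barrier. Enzymes of the mevalonate and squalene pathways build it under control of the transcription factor SREBP-2. Astrocytes load it through the transporter ABCA1 onto particles of apolipoprotein E, and neurons get rid of the excess by turning it into 24S-hydroxycholesterol with the enzyme CYP46A1.

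Of the 7 genes, Cyp46a1 was the one that fell in both MRL/lpr and Fn14koMRL against MRL/MpJ when all 12 mice were compared. Its mean level was 0.376 ± 0.127 in MRL/lpr, 0.348 ± 0.048 in Fn14koMRL and 1.267 ± 0.096 in MRL/MpJ (SD, n = 4 each). A level here is the background-subtracted signal of the gene divided by the median signal of its channel. Once an MRL/lpr array of low signal was left out, Srebf2 was also lower in both strains than in MRL/MpJ, and Sqle was higher in Fn14koMRL than in MRL/MpJ. Hmgcs1, Fdps, Apoe and Abca1 passed the test in none of the comparisons, either with all 12 mice or with the 10 that remained.

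Counted over the members, 1 of 7 was called at an adjusted p under 0.05 in MRL/lpr against MRL/MpJ with 12 mice, where 9.17% of the 8864 genes tested were called. In Fn14koMRL against MRL/MpJ it was 1 of 7, beside 0.519% of all genes. The comparison of MRL/lpr with Fn14koMRL gave 0 members called by limma, beside 3.98% of all genes. An unadjusted p under 0.05 was reached there by Srebf2 and by 36.2% of all genes, and by Abca1 in the fit named next. Abca1 is not among the 8864 genes and was tested in a fit without a filter on dim spots, which called 0.993%, 12.8% and 0% of 29608 genes in MRL/lpr against MRL/MpJ, MRL/lpr against Fn14koMRL and Fn14koMRL against MRL/MpJ, the last with 8.75% at an unadjusted p under 0.05 in limma. With the 10 mice 2 of 7 members were called in MRL/lpr against MRL/MpJ (15.7% of 17936 genes) and 3 of 7 in Fn14koMRL against MRL/MpJ (21.1%). MRL/lpr against Fn14koMRL had 0 of 7 in limma (9.12%), with Sqle and 23.3% of all genes at an unadjusted p under 0.05.

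Strains that did not overlap were common on these arrays. Among the 6 members measured in all 12 mice it was so for Cyp46a1 in MRL/lpr against MRL/MpJ (16.1% of all genes), for Srebf2 in MRL/lpr against Fn14koMRL (21.5%), and for Cyp46a1, Srebf2 and Sqle in Fn14koMRL against MRL/MpJ (19.9%). With the 10 mice it was so for 4 of 7 members (34% of all genes), 2 of 7 (37%) and 3 of 7 (18.5%) in the same order. The comparisons share mice, so their values stand side by side and are not independent.

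**Figure D1:**
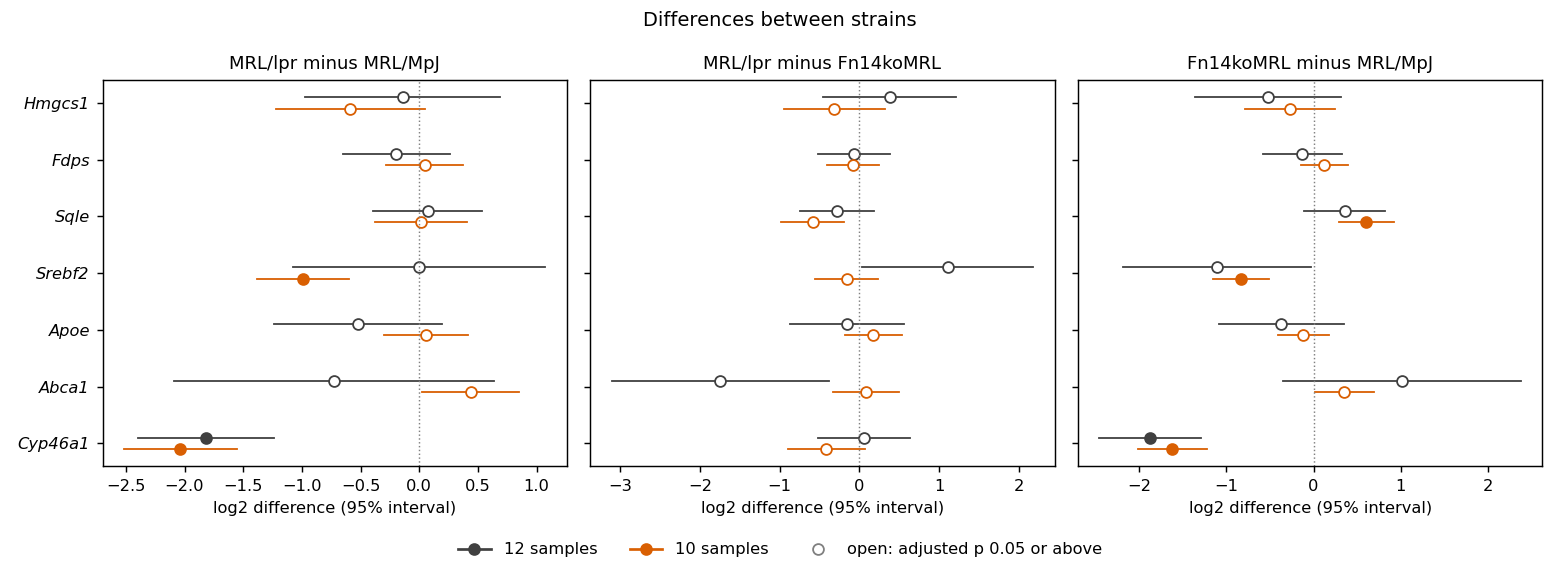
Log2 differences between strains for the 7 genes with their 95% intervals from limma, in dark grey for all 12 mice and in orange for the 10 mice, where filled points passed an adjusted p of 0.05; Abca1 with 12 mice comes from the fit without a filter. Cyp46a1 lies at -1.81 and -2.04 for MRL/lpr and at -1.87 and -1.62 for Fn14koMRL against MRL/MpJ, and no point is filled in the middle panel.

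The probes that carry these results lie in coding sequence, and their 60 bases are given here because each value rests on what this stretch captures. The probe of Cyp46a1 spans chr12:109596310-109598708 of mm9 on the plus strand. That stretch of genome is 2399 bases long, so the probe crosses an intron and matches spliced RNA. Srebf2 has a pair of probes, and the sequence shown is that of the probe that was over 2 times background in all 12 mice, although well above background in 8 of them (2 MRL/lpr, 4 Fn14koMRL and 2 MRL/MpJ), at chr15:82030068-82030127 on the plus strand. The probe of Apoe lies at chr7:20281732-20281791 on the minus strand as the files give it, and was spotted 10 times on every array.
Cyp46a1: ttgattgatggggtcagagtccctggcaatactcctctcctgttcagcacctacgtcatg
Srebf2: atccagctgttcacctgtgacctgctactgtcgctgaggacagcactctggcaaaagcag
Apoe: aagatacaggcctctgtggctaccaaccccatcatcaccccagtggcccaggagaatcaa

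Among the promoters of the members, that of Hmgcs1 holds the sterol regulatory element TCACNCCAC, which SREBP proteins are known to bind. It is shown as the 49 bases of chr13:119690194-119690242 of GRCm38.p6 on the plus strand, with the match in capitals, which begins 137 bases before the start site (RefSeq).
Hmgcs1 promoter: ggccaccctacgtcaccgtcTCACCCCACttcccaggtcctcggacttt
The search covered 250 bases before to 50 bases after each start site on both strands. Of the 5 members with such a window, Hmgcs1 alone held these letters, as did 408 of all 32851 windows (1.24%). The E-box CACGTG was found in the window of Abca1 and in 7.15% of all windows. The letters CCAAT were in the windows of Hmgcs1, Srebf2 and Cyp46a1 and in 37.4% of all windows. Of the 15 synthesis genes that have a window, 14 held CCAAT and 1, Hmgcs1, the sterol regulatory element, beside 41.1% and 1.44% of all genes. A match is a description of the sequence and says nothing on binding in these animals.

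The array of MRL/lpr replicates 3 and 4 stood apart. Its channel medians were 170 and 74.7 against 684 to 4545 in the other 10 channels, and its foreground was 1.93 and 1.73 times background against 4.42 to 12.6. All results are therefore given with all 12 mice and with the 10 mice outside this array, whose levels are scaled to a larger set of spots and cannot be set beside those of the 12. The Cy5 channels of MRL/MpJ stood apart as well, with negative-control spots at 208 and 211 units against 33.2 to 90.6 in the other channels. Tnfrsf12a, the gene of Fn14, was lower in the 4 Fn14koMRL mice (0.603 to 0.771) than in the other 6 of the 10 (1.09 to 1.98), but its probe was well above background in all 4, and the strain is named here as labelled. With all 12 mice, on the scale of the members, it was 0.151 to 0.189 in Fn14koMRL and 0.241 to 0.629 in the other 8. In the fit without a filter on dim spots, which divides by the median of all spots, the strains overlapped, with MRL/lpr minus Fn14koMRL at -0.63 and Fn14koMRL minus MRL/MpJ at -0.53 on the log2 scale (limma adjusted p = 0.425 and 0.625). Whether the probe lies in the deleted part of the gene was not given in the sources used here. The tissue also varied: in the 10 mice the summed level of the 7 measured hippocampal subfield markers was 39.7 to 47.6 in MRL/lpr, 23.0 to 34.4 in Fn14koMRL and 19.7 to 22.6 in MRL/MpJ. Striatal markers summed to 15.0 to 16.5, 37.2 to 105 and 16.8 to 34.3, and choroid plexus markers to 72.6 to 216, 28.2 to 48.0 and 25.9 to 34.6 in the same order. In tissue RNA, fewer cells of a type and less RNA per cell cannot be told apart.

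Cyp46a1 encodes cholesterol 24-hydroxylase, the enzyme of neurons that opens the main route of cholesterol out of the brain. With 12 mice its level was 0.233, 0.325, 0.414 and 0.531 in MRL/lpr replicates 1 to 4. It was 0.328, 0.316, 0.420 and 0.328 in Fn14koMRL and 1.18, 1.21, 1.28 and 1.40 in MRL/MpJ. Every MRL/MpJ mouse was above every other mouse, whereas the other strains overlapped. MRL/lpr was 3.52-fold lower than MRL/MpJ (log2 -1.81, SE 0.27, limma adjusted p = 0.00431). Fn14koMRL was 3.66-fold lower than MRL/MpJ (log2 -1.87, SE 0.27, limma adjusted p = 0.0276). The two-sided exact permutation test gave p = 0.0286 for either contrast, the smallest value that 4 mice against 4 allow. MRL/lpr and Fn14koMRL differed by 0.06 on the log2 scale (95% interval -0.52 to 0.64, limma adjusted p = 0.878).

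The lower level of Cyp46a1 was seen within each dye. On the log2 scale MRL/lpr minus MRL/MpJ was -1.98 among the Cy3 mice and -1.65 among the Cy5 mice, and Fn14koMRL minus MRL/MpJ was -1.73 and -2.02. Without the weak array the level was 0.880 and 1.22 in MRL/lpr, 1.30, 1.25, 1.71 and 1.31 in Fn14koMRL, and 4.53, 3.30, 5.05 and 4.33 in MRL/MpJ. No mouse of the other strains reached the lowest MRL/MpJ mouse. MRL/lpr was then 4.10-fold lower (log2 -2.04, SE 0.22, limma adjusted p = 0.000292) and Fn14koMRL 3.08-fold lower (log2 -1.62, SE 0.18, limma adjusted p = 0.000781) than MRL/MpJ. With 2 MRL/lpr mice against 4 no exact permutation p can be under 0.0667. The 2 MRL/lpr mice lay below all 4 Fn14koMRL mice, a log2 difference of -0.41 that did not pass the test (95% interval -0.90 to 0.07, limma adjusted p = 0.294).

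With all 12 mice, the calls of Cyp46a1 were lost when the array was a random block, with adjusted p = 0.160 for MRL/lpr and 0.864 for Fn14koMRL against MRL/MpJ (limma). Without the weak array the same block gave limma adjusted p = 5.39e-05 and 0.000163. It then called 28.6% and 35.7% of all genes, against 15.7% and 21.1% without the block. The correlation within arrays that the block estimated was -0.26 there, and 0.71 with 12 mice. The call of Fn14koMRL against MRL/MpJ was also lost with the replicate number as a block (log2 -1.87, limma adjusted p = 0.0503), with quantile normalization (log2 -1.80, limma adjusted p = 0.0873) and with no filter on dim spots (log2 -0.95, limma adjusted p = 0.579). Leaving out 1 mouse at a time kept it in 5 of 12 fits, with adjusted p from 0.0109 to 0.160 (limma; lost without any one MRL/MpJ mouse or Fn14koMRL replicate 2, 3 or 4), and kept that of MRL/lpr against MRL/MpJ in 12 of 12. On the weak array the Cyp46a1 spot was 4.05 and 2.32 times background, against 18.4 to 174 times elsewhere, and it was well above background in 10 of 12 mice, which leaves 2 of 4 in MRL/lpr.

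**Figure D2:**
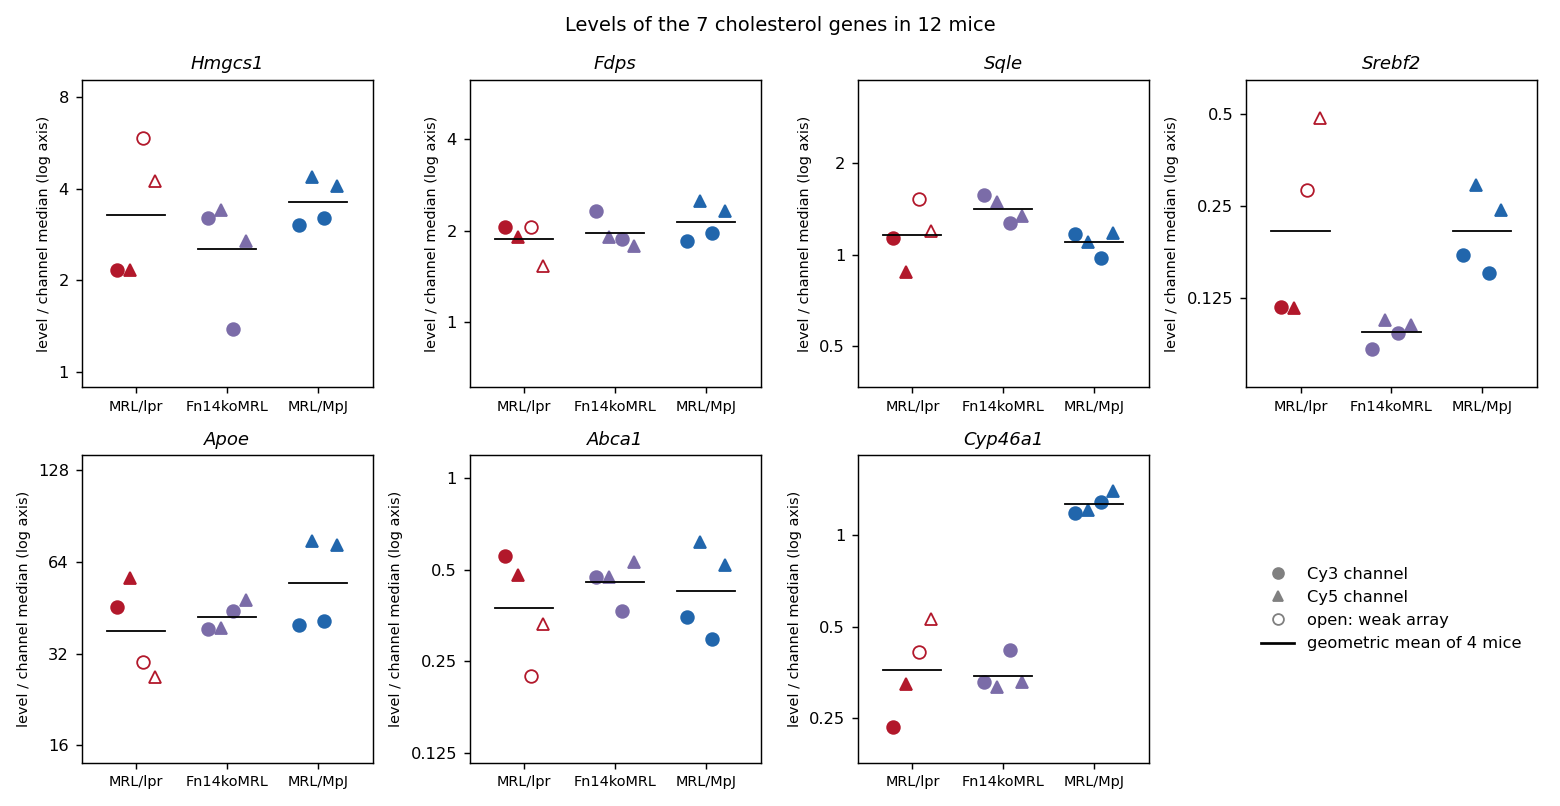
Levels of the 7 genes in all 12 mice, as signal over channel median on a log axis, with 1 point per mouse, circles for Cy3, triangles for Cy5, open symbols for the weak array and bars at the geometric mean of 4 mice; every panel spans the same relative range. Cyp46a1 in the 4 MRL/MpJ mice, at 1.18 to 1.40, lies above the 8 other mice, and for Hmgcs1 and Srebf2 an open symbol is the highest of all.

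Since Cyp46a1 is a gene of neurons, the levels of neuronal markers are set beside it. The summed level of the 10 neuron markers was 36.8 to 73.3 in MRL/lpr, 53.5 to 69.9 in Fn14koMRL and 75.1 to 89.2 in MRL/MpJ with 12 mice, and every MRL/MpJ mouse was above every other mouse. Over the 10 mice it was 208 to 273, 207 to 272 and 214 to 293, and the strains overlapped. All 10 markers were tested and well above background in every mouse. Against MRL/MpJ, 1 of them was lower in MRL/lpr with 12 mice, Slc17a7, a vesicular glutamate transporter of excitatory neurons (log2 -2.27, limma adjusted p = 0.00703). Among the 10 mice Slc17a7 was 11.7 to 15.2 in MRL/lpr, 14.9 to 20.3 in Fn14koMRL and 27.1 to 42.9 in MRL/MpJ, with log2 differences from MRL/MpJ of -1.39 (limma adjusted p = 0.000752) and -1.07 (limma adjusted p = 0.00174). The neuronal tubulin gene Tubb3 was lower as well, by -0.81 and -0.49 (limma adjusted p = 0.00975 and 0.0306). These were the 2 of 10 markers called in either contrast, with 0 higher, beside 9.61% and 11.1% of all genes lower. The list medians were -0.24 and 0.04 with the 10 mice, beside -0.10 and -0.07 over all genes. With 12 mice they were -0.75 and -0.21, beside -0.01 and -0.16. With the negative controls subtracted in the 10 mice, 3 and 1 of 10 were lower (limma), beside 6.38% and 3.37% of all genes. The list medians were then -0.91 and -0.63, beside 0.08 and 0.06 over all genes. The part of these markers, and of the regional markers above, in the Cyp46a1 result was not tested.

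Srebf2 encodes SREBP-2, which is cut in the Golgi when sterols are low and then switches on the synthesis genes and the LDL receptor. With 12 mice its level was 0.116, 0.116, 0.282 and 0.488 in MRL/lpr, 0.0847, 0.106, 0.0956 and 0.102 in Fn14koMRL, and 0.173, 0.294, 0.151 and 0.242 in MRL/MpJ. The mice of the weak array held the highest and the third-highest value, and the other 2 MRL/lpr mice lay below all MRL/MpJ mice. Fn14koMRL was below MRL/MpJ and below MRL/lpr without overlap, but neither difference passed the adjusted test (log2 -1.11, SE 0.49, limma adjusted p = 0.311, and 1.10 for MRL/lpr minus Fn14koMRL, SE 0.49, limma adjusted p = 0.133). The exact permutation p was 0.0286 for both. Without MRL/lpr replicate 2 the difference from MRL/lpr passed (log2 1.502, limma adjusted p = 0.0222). MRL/lpr and MRL/MpJ differed by -0.00155 on the log2 scale (95% interval -1.08 to 1.08). All these values rest on the probe whose sequence is shown. The other probe, at 1.42 times background in MRL/lpr replicate 4, gave -0.11 for MRL/lpr minus Fn14koMRL. Against MRL/MpJ it gave -1.18 for MRL/lpr and -1.07 for Fn14koMRL.

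Without the weak array, both probes of Srebf2 were measured. The level of the gene was 0.567 and 0.493 in MRL/lpr, 0.534, 0.513, 0.686 and 0.641 in Fn14koMRL, and 1.05, 1.03, 1.10 and 1.02 in MRL/MpJ. All 4 MRL/MpJ mice were above the 6 others. MRL/lpr was 1.99-fold lower than MRL/MpJ (log2 -0.99, SE 0.18, limma adjusted p = 0.00501) and Fn14koMRL 1.78-fold lower (log2 -0.83, SE 0.15, limma adjusted p = 0.00549). The call of MRL/lpr was lost without MRL/lpr replicate 2 (log2 -0.92, limma adjusted p = 0.0722), where the spread of the lone MRL/lpr mouse is taken from the other strains. MRL/lpr and Fn14koMRL overlapped (log2 -0.16, 95% interval -0.55 to 0.24, limma adjusted p = 0.688). The probe at chr15:82034765-82034824 gave -1.17 for MRL/lpr and -0.82 for Fn14koMRL against MRL/MpJ. The probe whose sequence is shown gave -0.68 and -0.85, so that both were lower in either strain.

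The negative-control spots bear on this gene. With 12 mice they stood at 0.0721 and 0.341 of the channel median in MRL/lpr replicates 3 and 4. Srebf2 read 0.282 and 0.488 there, and Cyp46a1 0.414 and 0.531. In the MRL/MpJ Cy5 channels they stood at 0.255 and 0.187, where Srebf2 read 0.294 and 0.242 and Cyp46a1 1.21 and 1.40. In the others they were at 0.0275 or less. On the scale of the 10 mice the controls reached 0.693 and 0.581 of the channel median in the Cy5 channels of MRL/MpJ. The shown Srebf2 probe read 0.801 and 0.751 there and the other probe 1.26 and 1.29. In the remaining 8 channels the controls were at 0.110 or less. When the controls were subtracted in place of the local background, Srebf2 was lower by -1.05 in MRL/lpr and by -0.91 in Fn14koMRL, and neither difference passed the test (limma adjusted p = 0.0845 and 0.0786). Cyp46a1, at 3.30 and 4.33 in those channels, was then lower by -2.64 and -2.21 (limma adjusted p = 0.00152 and 0.0118). The subtraction also raised bright genes in those channels relative to the channel median. There Cyp46a1 went to 8.44 and 8.92, and Apoe from 204 and 226 to 657 and 538. The part of this rescaling in the differences was not tested. Within the Cy3 mice alone, whose controls were at 0.0131 of the channel median or less, Srebf2 was lower by -0.92 and -0.83, the first of which rests on 1 MRL/lpr mouse.

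**Figure D3:**
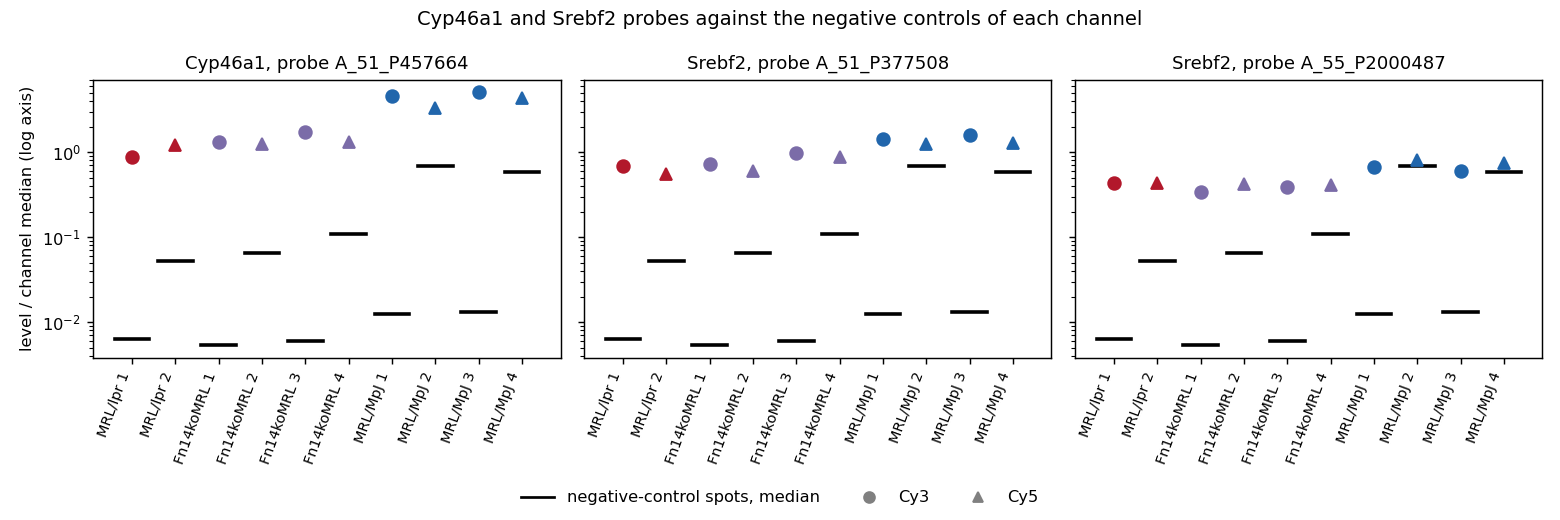
Levels of the Cyp46a1 probe and of the 2 Srebf2 probes in the 10 mice outside the weak array (symbols, signal over channel median, log axis) beside the median of the negative-control spots of the same channel (bars), for circles in Cy3 and triangles in Cy5. In the MRL/MpJ Cy5 channels the bars stand at 0.693 and 0.581, close to the Srebf2 probe shown at the right and well under Cyp46a1.

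Hmgcs1 encodes the cytosolic HMG-CoA synthase, which forms the substrate of HMG-CoA reductase at the head of the mevalonate pathway. With 12 mice its level was 2.15, 2.16, 5.89 and 4.24 in MRL/lpr, 3.22, 3.41, 1.38 and 2.70 in Fn14koMRL, and 3.03, 4.37, 3.19 and 4.07 in MRL/MpJ. The strains overlapped and the weak array again held the highest value. MRL/lpr minus MRL/MpJ was -0.14 (95% interval -0.98 to 0.69, limma adjusted p = 0.792). Among the 10 mice, MRL/lpr read 8.12 and 8.12, Fn14koMRL 12.8, 13.5, 5.63 and 10.8, and MRL/MpJ 11.6, 11.9, 12.6 and 12.6. Both MRL/lpr mice were below all MRL/MpJ mice (log2 -0.59, SE 0.29, limma adjusted p = 0.178), whereas Fn14koMRL replicate 3 was the lowest of all. Without that mouse the same difference passed (limma adjusted p = 0.0236), as did MRL/lpr minus Fn14koMRL (log2 -0.60, limma adjusted p = 0.0437). Its 2 probes lie on chr13_random of mm9, 235 bases apart. The probe at chr13_random:114558-114617 was well above background in none of the 12 mice, and all values come from the other.

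Fdps encodes farnesyl diphosphate synthase, whose product feeds sterols, dolichol and the lipid anchors of proteins. Its level with 12 mice ranged from 1.53 to 2.05 in MRL/lpr, from 1.78 to 2.32 in Fn14koMRL and from 1.85 to 2.50 in MRL/MpJ. The strains overlapped, and no difference was over 0.19 in size on the log2 scale (limma adjusted p = 0.498 or above). Over the 10 mice the ranges were 7.15 to 7.74, 7.12 to 9.22 and 6.81 to 7.73. The 95% interval of MRL/lpr minus MRL/MpJ was then -0.28 to 0.37, the narrowest of the members in that contrast.

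Sqle encodes squalene epoxidase, an oxygen-dependent and rate-limiting step between squalene and lanosterol. With 12 mice its level was 1.14, 0.878, 1.53 and 1.20 in MRL/lpr, 1.58, 1.49, 1.27 and 1.34 in Fn14koMRL, and 1.17, 1.10, 0.979 and 1.18 in MRL/MpJ. Each Fn14koMRL mouse was above each MRL/MpJ mouse (log2 0.36, SE 0.21, exact permutation p = 0.0286), but the adjusted p was 0.499 (limma). In the 10 mice the level was 4.29 and 3.31 in MRL/lpr, 6.26, 5.92, 5.17 and 5.36 in Fn14koMRL, and 4.51, 2.99, 3.86 and 3.66 in MRL/MpJ. All Fn14koMRL mice were the highest. Fn14koMRL was 1.52-fold above MRL/MpJ (log2 0.61, limma adjusted p = 0.0179), and MRL/lpr minus Fn14koMRL was -0.59 (SE 0.18, limma adjusted p = 0.0664). The latter passed without Fn14koMRL replicate 3 (limma adjusted p = 0.0356). It also passed with the array as a random block (limma adjusted p = 0.0227), which called 15.9% of all genes there. With the negative controls subtracted, Sqle in the MRL/MpJ Cy5 channels went to 7.44 and 7.35. The call of Fn14koMRL against MRL/MpJ was then lost (log2 0.08, limma adjusted p = 0.799). Leaving out 1 mouse at a time kept that call in 7 of 10 fits, with adjusted p from 0.0126 to 0.0656 (limma), and lost it without Fn14koMRL replicate 2 or 4 or MRL/MpJ replicate 2.

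**Figure D4:**
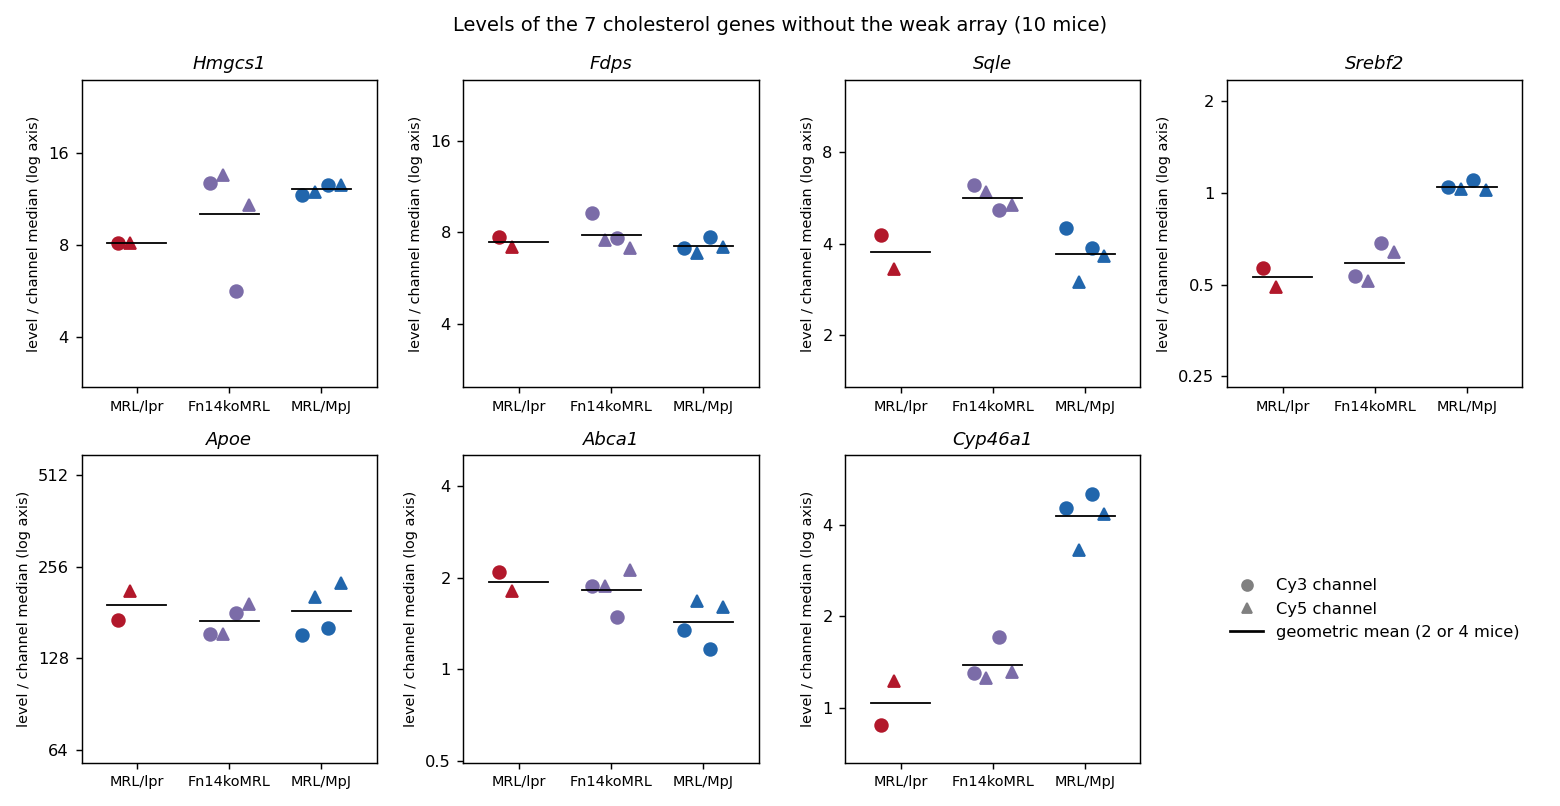
Levels of the 7 genes in the 10 mice outside the weak array, drawn as signal over channel median on log axes of 1 relative range, with circles for Cy3, triangles for Cy5 and bars at the geometric mean of 2 or 4 mice. Srebf2 and Cyp46a1 are highest in the 4 MRL/MpJ mice, and Sqle in the 4 Fn14koMRL mice.

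Apoe encodes apolipoprotein E, the main lipid carrier of the brain, secreted mostly by astrocytes. With 12 mice its level was 45.4, 56.6, 30.0 and 26.8 in MRL/lpr, 38.7, 38.9, 44.1 and 48.1 in Fn14koMRL, and 39.7, 74.9, 40.9 and 72.9 in MRL/MpJ. The 2 highest values were those of the MRL/MpJ Cy5 mice, and the 2 lowest those of the weak array. MRL/lpr minus MRL/MpJ was -0.52 (95% interval -1.24 to 0.19, limma adjusted p = 0.252), which was -0.13 within Cy3 and -0.92 within Cy5. Among the 10 mice, MRL/lpr read 171 and 213, Fn14koMRL 154, 154, 180 and 192, and MRL/MpJ 152, 204, 161 and 226. The strains overlapped and MRL/lpr minus MRL/MpJ was 0.06 (95% interval -0.30 to 0.41, limma adjusted p = 0.824). The 10 spots of Apoe on an array give the error of a single spot. Their coefficient of variation was 4.83 to 17.1% in 8 channels, 25.5 and 36.5% in the MRL/MpJ Cy5 channels, and 39.5 and 39.9% on the weak array.

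Abca1 encodes the transporter that loads cholesterol and phospholipid onto apolipoproteins, and its gene is switched on by oxysterols through liver X receptors. Its probe, at chr4:53043944-53044003 on the minus strand, was well above background in 10 of 12 mice and not on the weak array, where it read 2.46 and 1.73 times background. On the scale of the other members its level was 0.552, 0.481, 0.223 and 0.330 in MRL/lpr, 0.473, 0.474, 0.365 and 0.532 in Fn14koMRL, and 0.350, 0.615, 0.296 and 0.516 in MRL/MpJ. The strains overlapped. In the fit without a filter on dim spots, which divides by the median of all spots, every Fn14koMRL mouse was above all other mice. In that fit 26.3% of 29608 genes were lower in MRL/lpr than in Fn14koMRL without overlap. In Fn14koMRL against MRL/MpJ 5.93% were higher without overlap. MRL/lpr minus Fn14koMRL of Abca1 was -1.74 (SE 0.63, limma adjusted p = 0.0662). It passed without MRL/lpr replicate 1 or 2 (limma adjusted p = 0.0314 and 0.00647) and with the Agilent processed signal (0.0238) or sample weights (8.83e-05). Fn14koMRL minus MRL/MpJ was 1.02 in the same fit (limma adjusted p = 0.583) and 1.47 with sample weights (limma adjusted p = 4.05e-09), and ranged from 0.00276 to 5.60 over the alternatives. On the scale of the other members MRL/lpr minus Fn14koMRL was -0.29 (limma adjusted p = 0.426). In the 10 mice the level was 2.08 and 1.81 in MRL/lpr, 1.88, 1.88, 1.49 and 2.13 in Fn14koMRL, and 1.35, 1.68, 1.17 and 1.60 in MRL/MpJ. Both MRL/lpr mice were above all MRL/MpJ mice, a log2 difference of 0.44 (95% interval 0.03 to 0.85, limma adjusted p = 0.130), and Fn14koMRL minus MRL/MpJ was 0.35 (limma adjusted p = 0.117).

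The spread of a gene within a strain was also expressed as the relative expression variability (REV) of the study's methods, a percentage derived from the coefficient of variation over the spots and mice. For Cyp46a1 it was 72.6% in MRL/lpr, 29.8% in Fn14koMRL and 16.2% in MRL/MpJ. For Srebf2 it was 151%, 20.1% and 65.3%, and for Hmgcs1 108%, 73.4% and 38.5%. The largest value of each of these genes was in the strain that includes the weak array. The methods call a gene regulated when its ratio of mean levels exceeds a threshold (CUT) set by its own variation and the p of their test is under 0.05. Cyp46a1 met both in MRL/lpr against MRL/MpJ, with a ratio of -3.37 (minus for a fall) and a CUT of 2.05, and in Fn14koMRL against MRL/MpJ, with a ratio of -3.64 and a CUT of 1.48. Srebf2 met both in Fn14koMRL against MRL/MpJ only, with a ratio of -2.22 and a CUT of 1.97, and no other member met them in any of the 3 comparisons. The criterion uses an unadjusted p, and no share of all genes that met it is given. After Benjamini-Hochberg the methods' t-test gave 0.0768 for Cyp46a1 in MRL/lpr against MRL/MpJ. In Fn14koMRL against MRL/MpJ it gave 0.0485 for Cyp46a1 and 0.274 for Srebf2.

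The rest of the pathway was described through 4 lists that include the members. Of 20 synthesis enzymes, 12 were tested with 12 mice and 19 with 10. In MRL/lpr against MRL/MpJ 0 rose and 1 fell in either set, beside 5.71% of all genes lower with 12 mice and 9.61% with 10. The median over the list was -0.21 with 12 mice and -0.24 with 10, beside -0.01 and -0.10 over all genes. In Fn14koMRL against MRL/MpJ 0 rose and 1 fell with 12 mice, Sc5d, a sterol desaturase (log2 -1.44, limma adjusted p = 0.04997). With 10 mice 1 rose, Sqle, and 4 fell, among them Sc5d (-1.19), Acat2 (-1.06) and Hsd17b7 (-0.88), beside 10% of all genes higher and 11.1% lower in that comparison. With the negative controls subtracted it was 0 and 2 of 19 in limma, beside 0.836% and 3.37% of all genes. The list median was 0.12 against -0.07 over all genes before that subtraction, and -0.38 against 0.06 after it. In MRL/lpr against Fn14koMRL 0 of 12 passed in limma, with 5 at an unadjusted p under 0.05, beside 36.2% of all genes. Of 19 with 10 mice 1 passed, Pmvk, the phosphomevalonate kinase, which fell (-0.56, limma adjusted p = 0.0325), beside 5.03% of all genes lower.

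Of 11 genes of SREBP control, 7 were tested with 12 mice and 0 passed in any comparison (limma), with 2 or 3 at an unadjusted p under 0.05. With 10 mice 10 were tested. Insig1, which holds SREBP in the endoplasmic reticulum when sterols are high, was lower along with Srebf2 in MRL/lpr (-2.13, limma adjusted p = 0.00588) and in Fn14koMRL (-1.91, limma adjusted p = 0.00485) than in MRL/MpJ. Its level was 0.0492 to 0.0933 in MRL/lpr, 0.0542 to 0.112 in Fn14koMRL and 0.147 to 0.589 in MRL/MpJ. MRL/MpJ did not overlap the other strains, which overlapped each other, but the negative controls of the MRL/MpJ Cy5 channels, at 0.693 and 0.581, were near or above the highest of them. With the controls subtracted, 0 genes of the list were lower in either strain than in MRL/MpJ (limma; 2 and 3 of 10 had an unadjusted p under 0.05), so that the calls of Insig1 and Srebf2 were lost. In Fn14koMRL against MRL/MpJ 2 genes of the list rose and 4 fell before that subtraction, beside the same 10% and 11.1% of all genes, and 1 rose and 0 fell after it. Those called before it included Mbtps1, the protease that first cuts SREBP (1.32), and Srebf1, the factor of fatty acid synthesis (-1.72). Stard4, a sterol carrier, was higher in MRL/lpr than in Fn14koMRL (0.98, limma adjusted p = 0.0269), the only one of 10 to pass there. Over all genes 4.09% were higher and 5.03% lower in that comparison.

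Of 20 genes of transport, efflux and storage, 11 were tested with 12 mice and 19 with 10. In MRL/lpr against MRL/MpJ 2 fell with 12 mice: Lrp1, a receptor that takes up apolipoprotein E (-2.33, limma adjusted p = 0.0351), and Abca2, a lipid transporter (-1.19, limma adjusted p = 0.0293). With 10 mice Lrp1 alone fell (-0.88, limma adjusted p = 0.0122), and 0 rose in either set. Over all genes 3.46% rose and 5.71% fell with 12 mice, and 6.11% and 9.61% with 10. None (0) passed in MRL/lpr against Fn14koMRL in either set, with 1 at an unadjusted p under 0.05 in each (limma). In Fn14koMRL against MRL/MpJ 0 passed with 12 mice (2 at an unadjusted p under 0.05, limma). With 10 mice Vldlr, a lipoprotein receptor, rose (0.81) and 4 fell, beside 10% and 11.1% of all genes. Those that fell included Lcat (-0.83), Abca2 (-0.82) and Pltp (-0.72), which modify or carry lipoprotein lipid. With the negative controls subtracted it was 0 and 1 of 19 in that comparison, beside 0.836% and 3.37% of all genes. Of 6 oxysterol and clearance enzymes 2 were tested with 12 mice, and Cyp46a1 was the one that passed. With 10 mice Cyp7b1, an oxysterol 7-hydroxylase, was higher in MRL/lpr (2.34 to 3.10) than in MRL/MpJ (1.02 to 1.57), by 1.01 (limma adjusted p = 0.0071). With the array as a random block and 12 mice, 0 genes of any of the 4 lists passed in any comparison in limma, with at most 3 of a list at an unadjusted p under 0.05, beside 0.079%, 0.0451% and 0% of all genes in the order MRL/lpr against MRL/MpJ, MRL/lpr against Fn14koMRL and Fn14koMRL against MRL/MpJ. In the last of these 3.51% of genes had an unadjusted p under 0.05 with that block.

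**Figure D5:**
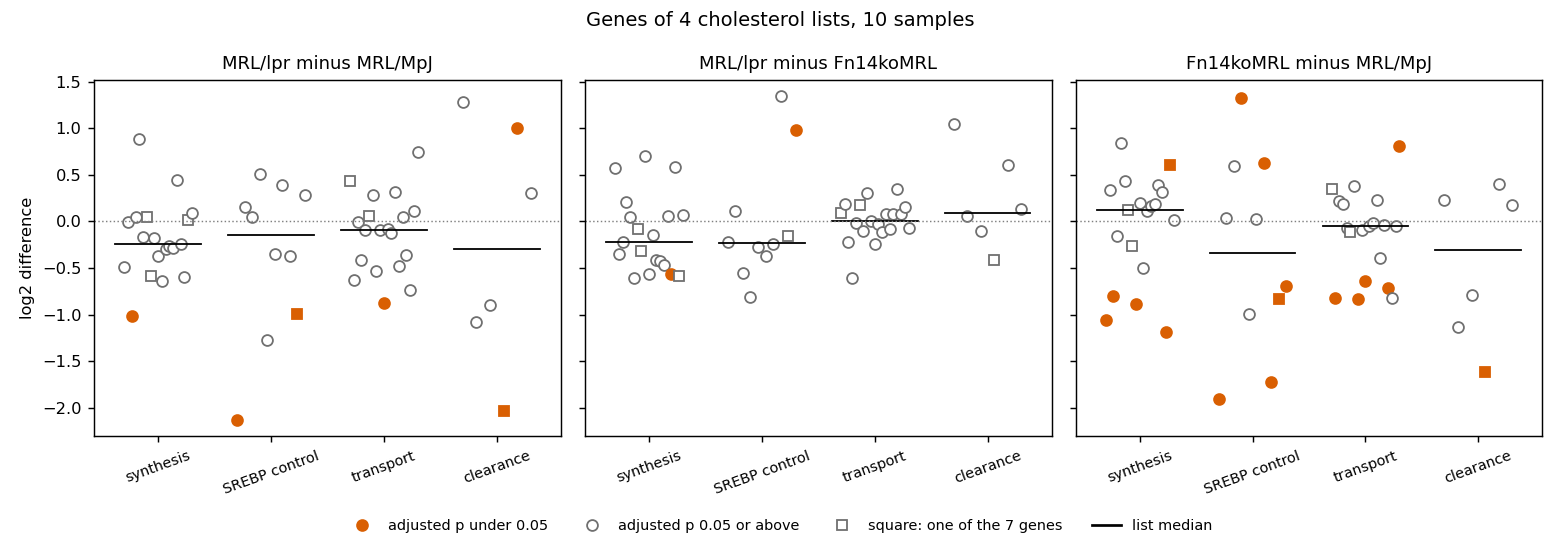
Log2 differences between strains of the tested genes of the 4 pathway lists in the 10 mice outside the weak array, with filled orange symbols for an adjusted p under 0.05 in limma, squares for the 7 members and bars at the list medians. In Fn14koMRL against MRL/MpJ 1 gene of the synthesis list passed above 0, which was Sqle, and the list median is 0.12.

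The glial marker lists are given because astrocytes make most of the sterol and of apolipoprotein E. Over the 10 mice the astrocyte markers summed to 48.9 to 54.5 in MRL/lpr, 52.1 to 66.7 in Fn14koMRL and 35.0 to 48.8 in MRL/MpJ, and 4 of 10 were higher in Fn14koMRL than in MRL/MpJ and 0 lower, beside 10% and 11.1% of all genes. With the negative controls subtracted, 0 of 10 passed in that comparison (limma), with 3 at an unadjusted p under 0.05. Against MRL/MpJ 2 of 10 were higher and 2 lower in MRL/lpr, beside 6.11% and 9.61% of all genes. The markers thus went both ways, and the list median was 0.09, beside -0.10 over all genes. Gfap, one of the higher, a filament gene of reactive astrocytes, was 7.99 to 8.80, 2.64 to 5.31 and 0.858 to 2.82 (MRL/lpr minus MRL/MpJ 2.32, limma adjusted p = 0.00136). The oligodendrocyte markers summed to 108 to 128, 63.9 to 113 and 53.9 to 89.2, with 3 of 10 higher in MRL/lpr than in MRL/MpJ and 0 lower, beside 6.11% and 9.61% of all genes. Those of microglia summed to 34.3 to 42.8, 40.2 to 44.2 and 43.3 to 50.1, with 0 higher and 1 lower in that contrast, P2ry12 (-0.64, limma adjusted p = 0.0177). Their part in the differences of the members was not tested.

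The members did not move as a block. Over the 10 mice the log2 levels of Srebf2 and Cyp46a1 correlated with r = 0.95, and with r = 0.51 over the 12. Abca1 and Cyp46a1 had r = -0.84 over the 10. The synthesis enzymes did not follow each other closely, with r = 0.04 for Hmgcs1 and Sqle and 0.64 for Sqle and Fdps over the 10. Hmgcs1 and Srebf2 had r = 0.71 over the 12 and 0.32 over the 10. These values are descriptions, since the mice fall into 3 strains and 2 share each array.

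The genes whose log2 levels were most like a member, by Pearson's r over the 10 mice, were Astn2 (0.985) and Retreg2 (0.981) for Cyp46a1, and Nckap5l (0.988) and Angel1 (0.985) for Srebf2. They were Aida (0.984) and Slc39a10 (0.970) for Hmgcs1, Chchd1 (0.964) and Lrrc8a (0.949) for Sqle, and Slc35g2 (0.951) and Cd83 (0.933) for Fdps. They were Cep162 (0.958) and Elk1 (0.946) for Apoe and Anxa1 (0.950) and Ttc8 (0.938) for Abca1. Over the 12 mice they were Rtl8a (0.960) and Prpf19 (0.939) for Cyp46a1, AW551984 (0.981) and Tmc8 (0.980) for Srebf2, Bsdc1 (0.964) and Aida (0.937) for Hmgcs1, and Dpp6 (0.938) and Pbxip1 (0.901) for Fdps. For Sqle they were Chchd1 (0.933) and NAP114786-1 (0.883), and for Apoe A_55_P2006392, a probe without a gene symbol (0.973), and Deaf1 (0.964). Aida and Chchd1 were named in both sets of mice.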

How the data were processed

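The authors scanned the arrays with Agilent Feature Extraction 12.1 (processing notes of the submitters), and each deposited file holds, per spot and dye, a foreground and a local background intensity on a linear scale, not normalized between channels, with mm9 positions and gene names of the array design. Following the methods of the study, signals were taken as foreground minus local background. Spots flagged as outliers or dimmer than 2 times background were left out, signals were scaled to the channel median, and the spots of each gene were averaged. This left 10877 spots (8864 genes) valid in all 12 samples and 25621 spots (17936 genes) in 10. Genes without such a spot were taken from all 29608 genes, with signals under 1% of the channel median set to 1%. Tests on log2 levels used limma (3.58.1, R 4.3.3) with strain and dye as terms, eBayes with trend, and Benjamini-Hochberg adjustment over all genes, and 2-sided exact permutation tests were run with Python 3.11.15. Scripts were tested on simulated data. No spot was saturated. Depth is limited by signal over background and by 4 mice a strain.

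The members and lists were chosen with earlier results of these data known. Named were the 7 members, up to 4 called genes per pathway list and comparison and up to 2 per marker list by size of change (a marker is printed where it stands beside a member), Tnfrsf12a and Fas, and the 2 genes most correlated with each member. Results of 1 gene of the synthesis list are not reported here. Fas read 0.106 to 0.145 in MRL/lpr, 0.165 to 0.233 in Fn14koMRL and 0.192 to 0.659 in MRL/MpJ (10 samples). The MRL/MpJ Cy5 mice read 0.616 and 0.659, where the negative controls stood at 0.693 and 0.581. With the controls subtracted the strains overlapped, at 0.056 to 0.138 in MRL/lpr, 0.108 to 0.233 in Fn14koMRL and 0.01 to 0.374 in MRL/MpJ. Alternatives were another background correction, signal column, normalization or filter, array or replicate blocks, sample weights, the methods' tests, and leaving out mice or the weak array. Chosen after seeing the data were the negative-control subtraction, the within-dye values and combinations with the left-out weak array.

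Labels share replicate numbers, and an odd number means Cy3 and an even number Cy5. Deviations from the group means of same-numbered samples correlated by 0.398, 0.257, 0.201 and 0.503 between Fn14koMRL and MRL/MpJ. The dye was not removed from these deviations, so a pairing cannot be told apart from the shared dye. The replicate number was used as a block only as an alternative. Between the other strains the signs were mixed (-0.395 to 0.442). The labels' free text mentions cortex where source and tissue say hippocampus. RefSeq windows (GRCm38.p6) matched 5 of 7 members.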

Additional observations from a re-analysis of the deposited data

Results flagged for a closer look

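Cyp46a1 in Fn14koMRL replicate 3, at 0.420 beside 0.316 to 0.328 in the other 3 mice of the strain, lay apart from its group by a gap of 0.865 of the group's range on the log2 scale, over Dixon's critical value at the 95% level for 4 samples. It was the 1 flag among 21 groups of 4, and chance flags about 1 in 20. The mouse was still below all MRL/MpJ mice.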

How the results depend on the processing

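Over all alternatives, Cyp46a1 was lower than MRL/MpJ in MRL/lpr (log2 -2.64 to -1.58) and in Fn14koMRL (-2.21 to -0.95). Of the 7 genes, 1 was called in MRL/lpr and 1 in Fn14koMRL against MRL/MpJ, and 0 in MRL/lpr against Fn14koMRL. In MRL/lpr against MRL/MpJ the number was 0 with the array as a random block and with the methods' t-test after Benjamini-Hochberg. It was 2 without the weak array, with that block (28.6% of all genes) or without it (15.7%). In MRL/lpr against Fn14koMRL it was 1 with no filter (12.8% of all genes), the Agilent processed signal, sample weights, the unadjusted t-test, and the block without the weak array (15.9%). In Fn14koMRL against MRL/MpJ it was 0 with no filter, quantile normalization, the array block or the replicate block (Cyp46a1 limma adjusted p = 0.0503). There it was 5 with sample weights, beside 38.5% of the 8864 genes. It was 3 without the weak array, with the array block (35.7% of all genes) or without it (21.1%). The unadjusted t-test gave 4 and the composite criterion 2, for which no share of all genes is given. The replicate block changed no other call (Cyp46a1 in MRL/lpr against MRL/MpJ, limma adjusted p = 0.00989). Leaving out 1 mouse at a time gave 1 to 1, 0 to 2 and 0 to 1 calls in the order MRL/lpr against MRL/MpJ, MRL/lpr against Fn14koMRL and Fn14koMRL against MRL/MpJ, and 1 to 3, 0 to 2 and 2 to 3 without the weak array.

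None of the differences whose sign turned was called with the 12 mice before any alternative was applied, and the cause was not tested. Some passed in alternative fits of all 12 mice. Abca1 in MRL/lpr minus Fn14koMRL did so with the Agilent processed signal and with sample weights. Apoe in Fn14koMRL minus MRL/MpJ did so with sample weights (limma adjusted p = 0.0496). Of the turned values, Hmgcs1 in MRL/lpr minus Fn14koMRL passed in 1 fit, of the 10 mice without Fn14koMRL replicate 3 (-0.60, limma adjusted p = 0.0437). In MRL/lpr minus MRL/MpJ, without the weak array, with or without the array block, Fdps was 0.047, Abca1 0.44 and Apoe 0.057. Srebf2 was 0.31 with normexp, 0.45 with the processed signal, 0.22 in the t-test and 0.79 with negative-control subtraction, where Abca1 was 1.90. Hmgcs1 was 0.22 with quantile normalization, Sqle -0.47 with no filter and -0.046 with sample weights, and Abca1 0.26 with sample weights. With negative-control subtraction and no weak array Sqle was -0.54 and Abca1 0.072.

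In MRL/lpr minus Fn14koMRL, without the weak array Hmgcs1 was -0.32, Srebf2 -0.16, Abca1 0.086, Apoe 0.17 and Cyp46a1 -0.41, and with negative-control subtraction as well -0.34, -0.14, 0.069, 0.15 and -0.43. With quantile normalization Srebf2 was -0.31, Fdps 0.0496 and Cyp46a1 -0.71. With no filter Hmgcs1 was -1.05, Srebf2 -1.01 and Cyp46a1 -1.40. With sample weights Hmgcs1 was -0.20, Fdps 0.11, Apoe 0.39 and Cyp46a1 -0.25. With the processed signal Apoe was 0.040 and Cyp46a1 -0.62, and with negative-control subtraction of all 12 mice Fdps was 0.00999 and Cyp46a1 -0.25. In Fn14koMRL minus MRL/MpJ, Fdps was 0.12 without the weak array, 0.10 with the processed signal and 0.79 with no filter, where Hmgcs1 was 0.39 and Apoe 0.63. Apoe was 0.088 with quantile normalization.

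Leaving out 1 mouse at a time, from the 12 or from the 10, gave wider ranges. In MRL/lpr minus MRL/MpJ Hmgcs1 ranged from -0.72 to 0.13, Sqle from -0.081 to 0.21, Srebf2 from -1.05 to 0.40, Fdps from -0.28 to 0.070, Abca1 from -1.26 to 0.70 and Apoe from -0.69 to 0.12. In MRL/lpr minus Fn14koMRL Hmgcs1 ranged from -0.60 to 0.65, Srebf2 from -0.23 to 1.502, Fdps from -0.12 to 0.035, Abca1 from -2.28 to 0.35, Apoe from -0.32 to 0.26 and Cyp46a1 from -0.79 to 0.27. In Fn14koMRL minus MRL/MpJ Hmgcs1 ranged from -0.70 to 0.017 and Fdps from -0.21 to 0.16.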
